A study of Mus musculus with 8 samples.

Results

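The peroxiredoxins, the superoxide dismutases, the cytoplasmic thioredoxin Txn1 and the phospholipid hydroperoxide glutathione peroxidase Gpx4 were followed in mouse polysomal mRNA, the mRNA bound to clusters of ribosomes. The group was set by gene symbol alone and names 10 genes (Prdx1 to Prdx6, Sod1, Sod2, Txn1 and Gpx4). Of these, 7 had at least 1 probe set that the platform annotation gives to that gene alone, 20 probe sets in all of 45037 on the array. Prdx1 shares its 5 annotated probe sets with the pseudogene Gm21399, so no value is given to it, and Prdx5 and Prdx6 were not analysed here. Of the 8 arrays, 4 came from metaphase II (MII) oocytes and 4 from one-cell embryos that had received α-amanitin, which blocks RNA polymerase II. Each batch pooled 160 to 500 eggs or embryos, and the labels do not give the strain, the age of the animals, the hours after fertilization or the dose of the inhibitor. Treatment with α-amanitin is stated only for the embryos, so stage and treatment cannot be told apart. Signals are relative to each array's total, so fewer molecules of an mRNA and less of it on ribosomes cannot be told apart either, nor, in these pools, can fewer cells of a kind and less RNA per cell. Nothing in the labels says whether the 4 batches of a group came from separate animals, so the p-values measure the spread between these arrays.

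Superoxide dismutases turn superoxide, a by-product of respiration, into hydrogen peroxide. Peroxiredoxins reduce the peroxide with a reactive cysteine, most of them drawing electrons from thioredoxin, while Gpx4 uses glutathione and a selenocysteine to reduce lipid peroxides inside membranes. Eggs carry many mitochondria and stored proteins and mRNAs into a period with little transcription, and antioxidant enzymes are among the proteins they keep in store.

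Polysomal mRNA of Sod1, Prdx3 and Gpx4 rose from the MII oocyte to the one-cell embryo. The signals of the brightest probe set of Sod1 rose 10.7-fold, back-transformed from log2(signal + 10), the scale of every log2 value given here. Its probe set 1459976_s_at rose 6.77-fold, while 1435304_at did not pass, and the mean of the 3 changed by 1.97 on the log2 scale. No fold is given for Prdx3 and Gpx4, because their oocyte signals lay below the array's median on 4 and 3 of the 4 MII arrays, and the size of their change depends on the offset. Prdx2, Sod2 and Txn1 did not pass the test, and Prdx4 was too dim to enter it. To enter the test, a probe set had to exceed the median signal of its array on 4 or more arrays, which 12 of the 20 did (8 did not), so that 6 genes were measured, each represented by its brightest probe set. Prdx3 entered only through its 4 one-cell arrays and so had to differ, and the counts that include it are a description. Of these 6 genes, 3 rose, 0 fell and 3 did not pass (limma, Benjamini-Hochberg adjusted p under 0.05 over 23336 probe sets). Among all 12359 genes measured, 20.1% were called higher and 14.7% lower. At the level of probe sets, 4 of the 12 members' probe sets rose against 19.3% of all those tested, 0 fell against 12.8%, and 8 did not pass. In either direction 32.1% of all probe sets tested were called. The groups did not overlap in the same 4, against 19.3% of all probe sets with the one-cell group above and 13.3% with it below.

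The arrays differed in quality. The median signal was 71.8 on one-cell array 1 and lay between 26.9 and 37.9 elsewhere, and its 18 hybridization controls had a geometric mean of 14880 against 857 to 3718. The ratio of 3′ to 5′ signal of Actb, which rises when RNA is cut short, was 65.9 on MII array 2 and 4.49 to 11.6 elsewhere. The same ratio for Gapdh did not set that array apart: it was 7.24 there and 3.57 to 9.41 elsewhere. All 13 oocyte markers with a probe set lay above the median on all 8 arrays, and their summed signal ranged from 75840 to 104200 in MII and from 62730 to 100400 in one-cell arrays. Of 14 cumulus and granulosa cell markers, 12 were not above the median on all arrays, Amh and Cd44 were above it on none, and the sum ranged from 535 to 788 in MII and from 490 to 1799 in one-cell arrays. Of 12 sperm and spermatid markers, 10 were not above the median on all arrays, Smcp, Tnp1 and Tnp2 were above it on none, and the sum ranged from 2785 to 3631 in MII and from 1482 to 2816 in one-cell arrays. In MII arrays most of that sum came from Odf2 alone, at 2410.3 to 3310.0. In one-cell arrays Odf2 lay at 532.1 to 2339.8. The part of these other cells in the results was not tested.

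Sod1 encodes the copper-zinc superoxide dismutase of the cytoplasm. Its brightest probe set, 1451124_at, gave signals of 519.8, 154.6, 642.4 and 360.4 on MII arrays 1 to 4 and of 3747.0, 5516.9, 2456.4 and 5312.5 on one-cell arrays 1 to 4. Every one-cell array lay above every MII array, and the lowest MII value was that of array 2, the array with the high Actb ratio. The mean rose from 419 ± 211 (SD, n = 4) to 4258 ± 1438, a log2 change of 3.41 ± 0.40 (SE, limma adjusted p = 9.79e-06), which was larger than that of 99.1% of the genes measured. Without MII array 2 the change was 3.01, and without one-cell array 1 it was 3.45. A second probe set, 1459976_s_at, whose suffix marks probes shared by more than 1 transcript, read 523.5, 210.2, 549.4 and 498.2 in MII and 2732.3, 4462.3, 2660.2 and 2131.3 in one-cell arrays. It rose too, by 2.76 ± 0.35 (adjusted p = 1.79e-05), again with MII array 2 lowest and with no overlap of the groups. A further probe set, 1435304_at, did not follow them: it lay at 80.6 to 122.0 in MII and at 46.9 to 164.8 in one-cell arrays, with a log2 change of -0.27 ± 0.38 (adjusted p = 0.643). With the level of the hybridization controls in the model it passed as lower (-0.95, adjusted p = 0.0389), while 1451124_at (3.36) and 1459976_s_at (2.88) still passed as higher. The mean of the 3 probe sets changed by 1.97. The remaining probe sets of Sod1, 1440222_at and 1447761_x_at, did not enter the test, with signals of 24.7 to 63.0 and 1.1 to 80.8 over the 8 arrays.

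Prdx3 encodes the peroxiredoxin of the mitochondrial matrix and has 1 probe set, 1416292_at. It gave 5.9, 7.2, 7.6 and 8.6 on MII arrays 1 to 4 and 297.9, 155.7, 181.1 and 129.2 on one-cell arrays 1 to 4. The groups lay far apart, and one-cell array 1 was the highest. The mean went from 7.33 ± 1.12 (SD, n = 4) to 191 ± 74.4, a log2 change of 3.47 ± 0.38 (limma adjusted p = 4.74e-06) and of 3.24 without one-cell array 1. In MII oocytes the probe set was brighter than 21.1% to 24.8% of the probe sets on its array, and in one-cell embryos than 75.6% to 85.5%. None of the 4 MII values lay above its array's median, so Prdx3 entered the test only through the embryo arrays and had to differ, and its oocyte level is poorly set. The size of the change therefore moves with the offset added before the logarithm, from 4.46 with an offset of 1 to 2.03 with 50.

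The genes whose pattern over the 8 arrays was most like that of Prdx3, by the root-mean-square difference of centred log2 signal among 12358 other genes, were Rab4b (0.197), Prkrip1 (0.207) and Pum3 (0.22). Rab4b, a small GTPase of recycling endosomes, had signals of 4.2 to 6.9 in MII and 147.8 to 235.1 in one-cell arrays. Prkrip1 went from 7.4 to 15.2 in MII to between 175.2 and 354.8, and Pum3, a Pumilio-family protein of the nucleolus, from 50.9 to 58.9 to between 436.2 and 1063.0. Like Prdx3, Rab4b and Prkrip1 were above the array's median on no MII array, so they entered only through the embryo arrays. The likeness rests on 2 groups of 4 arrays and is a description.

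Gpx4 was read by 1456193_x_at, whose suffix marks probes that also match other sequences. Its signals were 64.6, 28.2, 28.1 and 16.9 on MII arrays 1 to 4 and 234.0, 90.2, 101.5 and 151.1 on one-cell arrays 1 to 4. The one-cell arrays lay above the MII arrays without overlap, and the nearest values were those of MII array 1 and one-cell array 2. The mean rose from 34.5 ± 20.8 (SD, n = 4) to 144 ± 65.5, a log2 change of 1.81 ± 0.40 (limma adjusted p = 0.00249) and of 1.56 without one-cell array 1. Only 1 of the 4 MII values lay above its array's median, so the oocyte level is poorly set, and the change was 2.10 with an offset of 1 and 1.17 with 50. The other probe set of Gpx4, 1451695_a_at, did not enter the test: it lay at 1.3 to 2.0 in MII and at 4.6 to 29.3 in one-cell arrays, below the median on all 8.

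**Figure D1:**
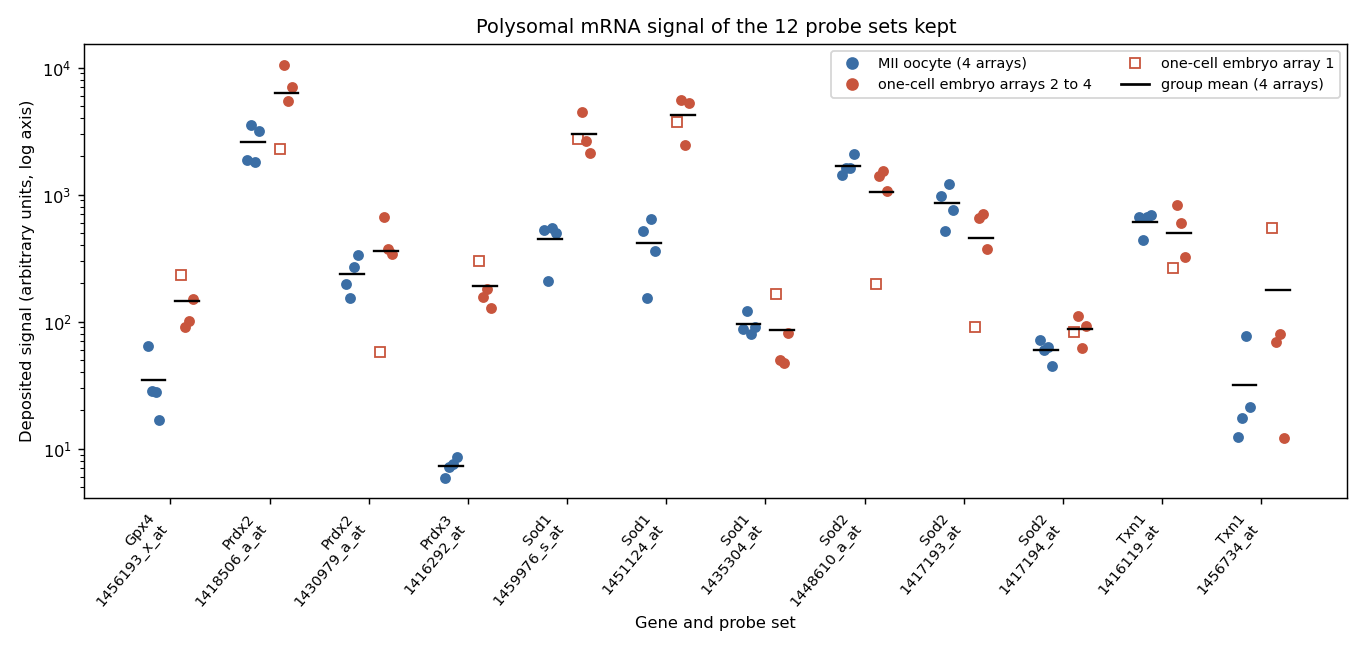
Deposited signal on a log axis for the 12 probe sets that entered the test, with 4 MII arrays in blue and 4 one-cell arrays in red, one-cell array 1 as an open square and the mean of each group as a black line. Prdx3, Gpx4 and a pair of Sod1 probe sets have no overlap between the groups, and one-cell array 1 is the lowest one-cell value in Prdx2 and in the brighter probe sets of Sod2.

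Sod1 and Prdx3 are the members with the smallest p-values, and the 250 bases before their annotated start are shown, from the RefSeq promoter table of build GRCm38.p6 and read 5′ to 3′ on the strand of the gene. That of Sod1 (chr16:90220512-90220761, plus strand) holds 1 match to the core of the antioxidant response element, the site bound by Nrf2, and that of Prdx3 (chr19:60874539-60874788, minus strand) holds 0. The core was searched as TGACNNNGC on both strands, and the match, on the strand opposite to Sod1 and ending 47 bases before the start, is in capitals.
Sod1: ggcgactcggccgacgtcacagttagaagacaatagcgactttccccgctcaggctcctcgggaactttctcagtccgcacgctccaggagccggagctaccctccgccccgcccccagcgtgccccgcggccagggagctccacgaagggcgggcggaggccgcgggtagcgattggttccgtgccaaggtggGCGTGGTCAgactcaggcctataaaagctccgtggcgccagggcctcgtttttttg
Prdx3: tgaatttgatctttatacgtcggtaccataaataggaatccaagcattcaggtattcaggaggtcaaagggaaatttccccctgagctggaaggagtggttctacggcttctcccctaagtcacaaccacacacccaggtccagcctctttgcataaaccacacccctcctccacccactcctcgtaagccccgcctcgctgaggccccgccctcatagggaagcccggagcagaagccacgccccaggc
Of the 9 named genes with such a window (12 windows, 4 of them for Gpx4), 2 windows held a match, those of Sod1 and Prdx1, and 10.2% of all 32851 windows did. These embryos had been treated with a transcription inhibitor, and binding was not measured.

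Prdx2 encodes a peroxiredoxin of the cytoplasm. Its signal from 1418506_a_at already exceeded that of 96.4% to 98.2% of the probe sets on the MII arrays. It read 1876.5, 3507.4, 1803.1 and 3162.8 on MII arrays 1 to 4 and 2300.5, 10553.0, 5412.5 and 7084.3 on one-cell arrays 1 to 4. One-cell arrays 2 to 4 lay above all MII arrays, and one-cell array 1 lay among them. The log2 change was 1.16 ± 0.43 and just missed the threshold (limma adjusted p = 0.051). Without one-cell array 1 it was 1.58 ± 0.32 (adjusted p = 0.00118), without MII array 2 it was 1.32 (adjusted p = 0.0486), and without any of the other 6 arrays it did not pass (0.84 to 1.27). After quantile normalization Prdx2 passed (1.69, adjusted p = 0.00247), and with arrays centred on their medians it did not (0.84, adjusted p = 0.343). The weaker probe set 1430979_a_at gave 199.0, 153.5, 271.4 and 332.6 in MII and 58.1, 671.4, 370.8 and 338.1 in one-cell arrays. Here too one-cell array 1 was the lowest of its group, and the other 3 one-cell arrays lay above all MII arrays. Its change was 0.23 ± 0.52 with all arrays (adjusted p = 0.799) and 0.91 ± 0.32 without one-cell array 1 (adjusted p = 0.0386).

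Prdx4, the peroxiredoxin of the endoplasmic reticulum, has 4 probe sets, and none of them entered the test. Over the 8 arrays 1416167_at lay at 10.3 to 59.8, 1416166_a_at at 0.3 to 43.7, 1431269_at at 0.8 to 35.1 and 1435731_x_at at 4.8 to 46.4. In each the groups overlapped, and no direction is given.

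Sod2, the manganese superoxide dismutase of the mitochondrial matrix, did not rise with its cytoplasmic counterpart. Its brightest probe set, 1448610_a_at, read 1433.9, 1626.2, 1613.3 and 2077.7 on MII arrays 1 to 4 and 198.0, 1402.6, 1536.4 and 1064.5 on one-cell arrays 1 to 4. One-cell array 1 was far below every other array, and one-cell array 3 lay within the MII range. The log2 change was -1.01 ± 0.49 (limma adjusted p = 0.134), and it shrank to -0.34 ± 0.25 without one-cell array 1 (adjusted p = 0.338). The next probe set, 1417193_at, gave 973.3, 518.0, 1211.8 and 751.3 in MII and 90.7, 650.7, 697.9 and 370.9 in one-cell arrays, with the same array lowest. Its change was -1.19 ± 0.49 (adjusted p = 0.0779) with all arrays and -0.57 (adjusted p = 0.2) without one-cell array 1. It passed without one-cell array 2 (-1.47, adjusted p = 0.0407) or 3 (-1.50, adjusted p = 0.0356). A dimmer probe set, 1417194_at, lay at 44.5 to 71.3 in MII and 61.8 to 110.4 in one-cell arrays (0.47 ± 0.33, adjusted p = 0.322), and 1454976_at, at 4.7 to 29.4 over all arrays, did not enter the test.

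Txn1, the thioredoxin that reduces the cytoplasmic peroxiredoxins, showed no change past the test. Probe set 1416119_at read 672.6, 436.5, 660.9 and 686.7 on MII arrays 1 to 4 and 265.6, 822.6, 598.9 and 320.2 on one-cell arrays 1 to 4. The one-cell values lay on either side of the MII values, and the log2 change was -0.41 ± 0.35 (limma adjusted p = 0.426). The dimmer probe set 1456734_at gave 12.3, 17.3, 76.6 and 21.2 in MII and 545.4, 68.6, 80.0 and 12.2 in one-cell arrays, with a change of 1.43 ± 0.73 (adjusted p = 0.153). Its highest value was on one-cell array 1, without which the change was 0.59, and without one-cell array 4 it passed (2.14, adjusted p = 0.0224). The probe sets of Txn1 differed in sign.

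**Figure D2:**
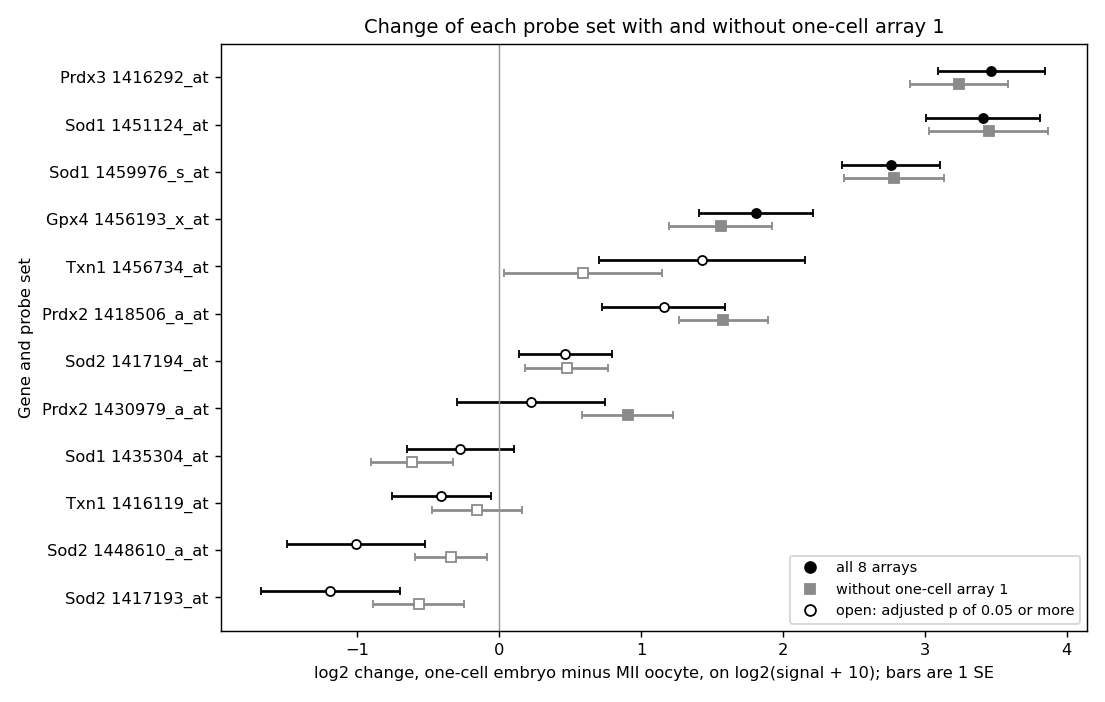
Log2 change of each of the 12 probe sets, one-cell embryo minus MII oocyte with 1 SE, for all 8 arrays (black circles) and without one-cell array 1 (grey squares), open where the limma adjusted p was 0.05 or more. Sod1 (3.41 and 3.45), Prdx3 (3.47 and 3.24) and Gpx4 (1.81 and 1.56) kept their calls, the pair of Prdx2 probe sets passed only without that array, and Sod2 moved from -1.01 to -0.34. Prdx3 entered only through the embryo arrays, so its call is a description.

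Ratios between genes within an array, here of signal + 10, show whether genes changed unequally, but those of a dim gene depend on the offset. Of 8 pairs set out by shared compartment or reaction, 3 had both genes measured. The log2 ratio of Sod1 to Sod2 was -1.45, -3.31, -1.31 and -2.50 on MII arrays 1 to 4 and 4.17, 1.97, 0.67 and 2.31 on one-cell arrays 1 to 4. Its mean changed by 4.42 ± 0.86 (SE), and every one-cell ratio lay above every MII ratio. With each gene's probe sets averaged the change was smaller, 2.54. The ratio of Prdx3 to Sod2, both of the mitochondrial matrix, was -6.50, -6.57, -6.53 and -6.81 in MII and 0.57, -3.09, -3.02 and -2.95 in one-cell arrays, a change of 4.48 ± 0.90. It was 5.49 with an offset of 1 and 2.97 with 50, as the oocyte signal of Prdx3 lies below the offset. One-cell array 1 stood above the other 3, and without it the change was 3.58. Since Prdx3 entered only through the embryo arrays, this pair is a description, and its p-value is not read. The ratio of Prdx2 to Sod1 went from 1.83, 4.42, 1.48 and 3.10 in MII to -0.70, 0.93, 1.14 and 0.41 in one-cell arrays, a change of -2.26 ± 0.79. For Sod1 to Sod2 and for Prdx2 to Sod1 the groups did not overlap. A two-sided exact permutation test gave p = 0.0286 for each, the lowest value possible with groups of 4. It was 0.0286 after adjustment over the 3 pairs, a count that includes Prdx3 to Sod2. The pairs Sod1 to Sod2 and Prdx2 to Sod1 share Sod1. The ratio of Prdx2 to Sod1 did not pass after quantile normalization (-1.89, exact p = 0.0571) or with each gene's probe sets averaged (-1.28, exact p = 0.114). The level of a ratio depends on the probe sets and is not read.

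**Figure D3:**
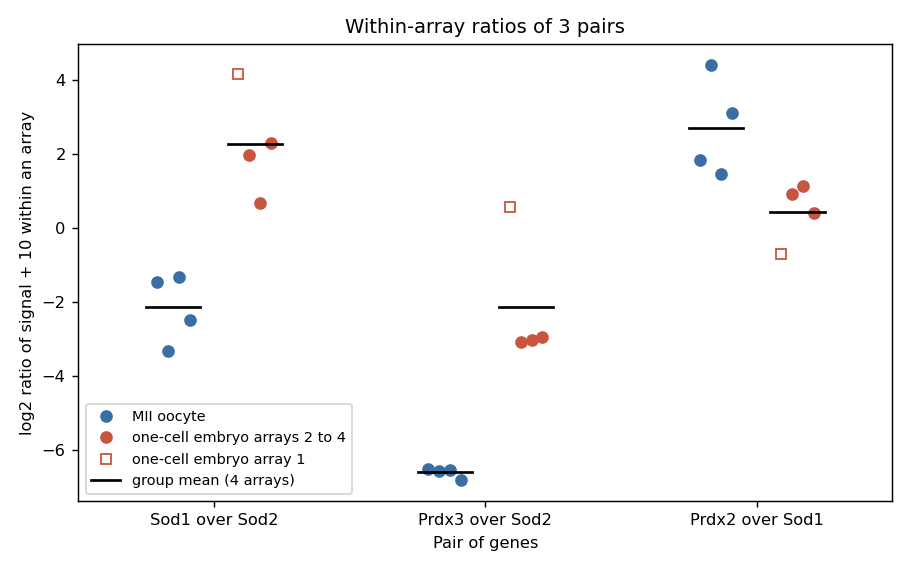
Log2 ratio of signal + 10 within each array for 3 pairs of genes, MII arrays in blue and one-cell arrays in red with one-cell array 1 as an open square; black lines are means over 4 arrays. No pair overlaps between the groups, and one-cell array 1 lies at the outer end of its group in each. Prdx3 entered the test only through the embryo arrays, so Prdx3 over Sod2 is a description.

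The other genes of the antioxidant system held rises and falls. Over 6 lists by role, 106 genes were measured of 138 listed, and 21 rose and 18 fell, against 20.1% and 14.7% of all genes called higher and lower. The median log2 change of the 106 was 0.19, beside 0.16 for all genes measured. With each array centred on its median, 13 rose and 14 fell.

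In the thioredoxin and glutaredoxin list, which holds the enzymes that hand electrons to peroxiredoxins and their relatives, 6 of 21 measured genes rose and 3 fell, with a median change of 0.18. Txndc9, a thioredoxin-like protein that binds the chaperonin, rose from 201 ± 76.7 (SD, n = 4) to 4024 ± 1324, a log2 change of 4.26 ± 0.34 (limma adjusted p = 2.83e-07), and each of its 3 probe sets rose. Glrx5, the mitochondrial glutaredoxin of iron-sulfur cluster assembly, rose by 2.32 ± 0.35, and Txnl4b by 2.03 ± 0.28. Txnip, which binds and inhibits thioredoxin, fell by 1.36 on the log2 scale (7542 ± 578 to 3178 ± 1372, adjusted p = 0.00932). Its other probe set did not pass (0.44), their average changed by -0.46 (adjusted p = 0.215), and with the hybridization controls in the model the call was lost (-0.78, adjusted p = 0.096). The thioredoxin reductase Txnrd1, with signals of 410 ± 32.8 and 302 ± 80.6, did not pass on its brightest probe set (-0.46 ± 0.28, adjusted p = 0.229), although another, 1424486_a_at, fell by 0.94 (adjusted p = 0.0214). Srxn1, the sulfiredoxin that repairs over-oxidised peroxiredoxins, did not pass (0.18 ± 0.47, adjusted p = 0.82) and changed sign after quantile normalization (-0.22) and after centring (-0.13).

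In the glutathione list 3 of 26 genes rose and 2 fell, with a median of 0.28. Gsta4, a glutathione transferase that clears products of lipid peroxidation, rose from 107 ± 31.7 (SD, n = 4) to 1262 ± 330 (3.45 ± 0.30, limma adjusted p = 6.49e-07). Hagh, the glyoxalase that releases glutathione, rose by 1.35 ± 0.35 (adjusted p = 0.00729), a call lost with the level of the hybridization controls in the model (0.79, adjusted p = 0.0841). This was read by 1437519_x_at, whose suffix marks probes that also match other sequences. The other probe set of Hagh that entered the test did not pass. The brightest probe set of Slc7a11, the cystine importer that feeds glutathione synthesis, fell (-0.94 ± 0.29, adjusted p = 0.0194), but its other probe set rose (2.13 ± 0.29) and the mean of both was 0.59, so its direction is not settled. Gsr, the glutathione reductase (0.83 ± 0.52, adjusted p = 0.257), and Gpx1, the cytoplasmic glutathione peroxidase (-0.69 ± 0.49, adjusted p = 0.326), did not pass.

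Among other genes that handle superoxide and peroxide, 2 of 7 measured rose and 2 fell, with a median of 0.51. Park7, a protein that responds to oxidation through a cysteine, rose from 89.9 ± 15.4 (SD, n = 4) to 565 ± 67.6 (2.53 ± 0.27, limma adjusted p = 3.72e-06), and its second probe set rose as well (3.08). The methionine sulfoxide reductase Msrb3 fell by 1.52 on the log2 scale (adjusted p = 0.000826), while its relative Msrb1, a selenoprotein, rose by 1.22 ± 0.32 (adjusted p = 0.00671). The call of Msrb1 was lost after quantile normalization (0.78, adjusted p = 0.0624) and that of Msrb3 with its probe sets averaged (-0.41, adjusted p = 0.28). Catalase (Cat), with signals of 0.4 to 36.0 and of 1.3 to 21.2 in its probe sets, and Ccs, the copper chaperone that loads Sod1, with 6.2 to 60.3, did not enter the test.

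**Figure D4:**
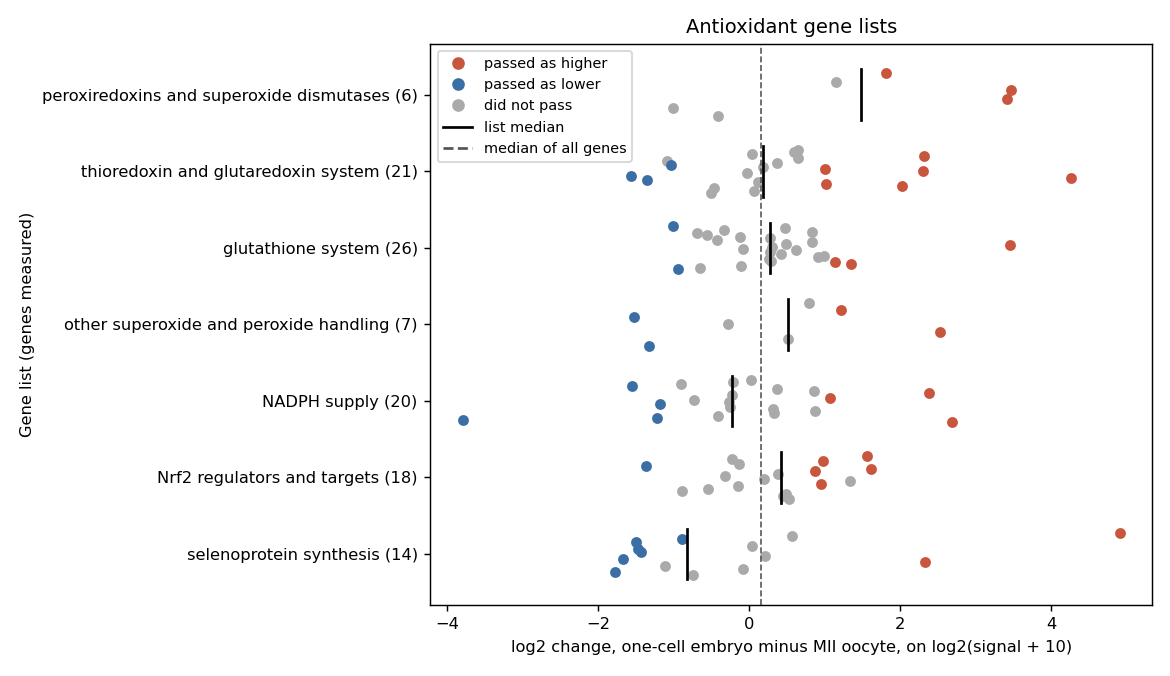
Log2 change of every measured gene, one-cell embryo minus MII oocyte, in the peroxiredoxin and superoxide dismutase group and in 6 antioxidant lists, red where a gene passed as higher, blue where it passed as lower and grey otherwise; black bars are list medians and the dashed line is the median of all genes (0.16). The list medians run from -0.82 for selenoprotein synthesis to 0.51 for other superoxide and peroxide handling and 1.48 for the group itself, which holds 6 genes and includes Prdx3, which entered only through the embryo arrays.

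The list drawn up for NADPH, the source of reducing power for the thioredoxin and glutathione systems, held 3 rises and 4 falls among 20. Its median was -0.22. Not every gene listed makes NADPH: Taldo1 and Tkt do not, and Me2 makes NADH. The transaldolase Taldo1 fell from 1740 ± 516 (SD, n = 4) to 118 ± 40.5, by 3.79 on the log2 scale (limma adjusted p = 3.14e-07). Tkt, the transketolase of the same pentose phosphate pathway, rose from 59.9 ± 7.2 to 452 ± 123 (2.69 ± 0.30, adjusted p = 5.04e-06), and the mitochondrial malic enzyme Me2 by 2.38 ± 0.31. The rise of Tkt was read by 1439443_x_at, whose suffix marks probes that also match other sequences. The other kept probe set of Tkt did not pass (-0.02), and Me2 missed the threshold with its 3 probe sets averaged (0.70, adjusted p = 0.0832). No value is given for G6pdx, which was not analysed here.

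Of 18 regulators and targets of Nrf2, the transcription factor of the antioxidant response, 5 rose and 1 fell, with a median of 0.42. The ferritin heavy chain Fth1 rose (1.62 ± 0.29, limma adjusted p = 0.000487) on both of its probe sets. The glutathione-conjugate exporter Abcc1 rose by 1.57 ± 0.33 (adjusted p = 0.00157) on its brightest probe set. Its other probe set, 1421378_s_at, did not pass (0.079, adjusted p = 0.903), and there the groups overlapped. Cul3, the cullin that with Keap1 marks Nrf2 for degradation, fell by 1.36 on the log2 scale (adjusted p = 0.0123), and each of its 3 probe sets that entered the test fell. The call of Abcc1 was lost after quantile normalization (1.01, adjusted p = 0.0579) and after centring (1.25, adjusted p = 0.0523), and that of Cul3 after centring (-1.68, adjusted p = 0.0514) and with the level of the hybridization controls in the model (-0.55, adjusted p = 0.231). Nfe2l2, the gene of Nrf2 itself (-0.54 ± 0.36, adjusted p = 0.287), and Keap1 (0.39 ± 0.28, adjusted p = 0.341) did not pass.

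The selenoprotein synthesis list holds selenoproteins as well as the factors that make them, on which Gpx4 depends for its selenocysteine. It had 2 rises and 6 falls among 14 genes and a median of -0.82. Most of the falls, that of Selenot among them, were of selenoproteins and not of factors. Eefsec, the elongation factor that brings selenocysteine to the ribosome, rose from 1.6, 4.1, 2.1 and 22.7 on MII arrays 1 to 4 to 317.9, 408.6, 435.4 and 844.7 on one-cell arrays (4.91 ± 0.41, limma adjusted p = 4.26e-07). All its MII values lay below the array's median, so it entered only through the embryo arrays. Sepsecs, which makes selenocysteine on its tRNA, fell by 1.78 on the log2 scale (adjusted p = 0.000915) on both probe sets. Selenot, a selenoprotein of the endoplasmic reticulum, fell by 1.67 (adjusted p = 0.00027), a call lost when its probe sets were averaged (-0.71, adjusted p = 0.0686). Gpx4 thus rose while more genes of this mixed list of selenoproteins and factors fell than rose. The difference between the list and other genes was not tested.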

How the data were processed

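Polysomal RNA of 4 MII and 4 one-cell batches was amplified by 2 rounds of in vitro transcription and labelled with biotin, 1 colour per array, per the labels. The deposited values are linear intensities, 1 for each probe set on each array. The array software is not given in the sources used here, nor is a build. The mean after trimming 2% at each end was 150 on all 8 arrays, so values were used as deposited, with an offset of 10 before log2. Of 45101 probe sets, 64 controls were left out. The annotation gives 34945 probe sets 1 symbol, 932 several and 9160 none, and 34754 were matched to RefSeq by gene ID for current symbols. Those above the array median on at least 4 arrays (23336) were compared by limma (version 3.58.1 under R 4.3.3) with lmFit and eBayes, trended variance, two-sided p-values, Benjamini-Hochberg adjustment and a threshold of 0.05. The procedure was also run on simulated arrays with independent noise and few changed probe sets. Those lack the differences in quality between the arrays here, so they do not measure its errors in these data. Ratios were compared by exact permutation in SciPy 1.17.1.

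The members, lists, markers and tests were chosen with earlier results of these data known. Named were all members, the 3 genes of smallest p in each of the 6 lists, a panel of 10 genes (Cat, Gpx1, Gsr, Txnrd1, Srxn1, Nfe2l2, Keap1, Txnip, Ccs and G6pdx) and the 3 genes most like the member with the smallest p. Prm2, Akap4, Odf2, Cyp11a1, Selenow, Txn2, Amh, Cd44, Smcp, Tnp1 and Tnp2 were chosen after their values were seen. Amplification favours 3′ ends, so probe sets of 1 gene can differ. Alternatives covered the scaling, offset, filter, variance model, array weights, replicate number, control signal as a covariate, each array left out, averaged probe sets and a threshold of 0.01. Arrays with the same number did not deviate together (correlations of -0.16, -0.11, 0.14 and 0.039 over the probe sets kept), so the number was taken as a name.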

Additional observations from a re-analysis of the deposited data

Results flagged for a closer look

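In 40 checks (20 probe sets in 2 groups of 4 arrays), 3 values stood apart from the other 3 of their group by Dixon's gap criterion on log2(signal + 10), where chance gives about 1 in 20. Sod1 probe set 1459976_s_at read 210.2 on MII array 2, where its fellow MII arrays gave 498.2 to 549.4. Txn1 probe set 1416119_at read 436.5 on the same array against 660.9 to 686.7. That array also had the highest Actb ratio of 3′ to 5′ signal, 65.9. Its Gapdh ratio, 7.24, lay within the range of the other arrays. The part of RNA quality in these values was not tested. Gpx4 probe set 1451695_a_at, below the median on all arrays, read 2.0 on MII array 3 against 1.3 to 1.4.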

How the results depend on the processing

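The rises of Sod1, Prdx3 and Gpx4 kept their direction and their call in every alternative that gave a value. Prdx3 entered only through the embryo arrays and had to differ, so for it this is a description. The filter at the 75th percentile gave no value for Gpx4. Prdx2 passed with quantile normalization (1.69), that filter (1.16), array weights (1.63), the replicate block (1.16, adjusted p = 0.0177) and the control covariate (1.61). With that covariate Sod2 changed sign (0.10, and 0.0035 for 1417193_at), as did Txn1 (0.13, and 0.51 with its probe sets averaged) and Nfe2l2 (0.12). The dimmer Prdx2 probe set did so after quantile normalization (-0.25) and centring (-0.091), Keap1 after quantile normalization (-0.042), Slc7a11 with its probe sets averaged (0.59), and Srxn1 after quantile normalization (-0.22), centring (-0.13), weighting (-0.017) and with the covariate (-0.10). Genes of the 6 lists that rose numbered 13 after centring. The ratio of Prdx2 to Sod1 missed the threshold after quantile normalization (-1.89) and with averaged probe sets (-1.28). With 1 array left out, changes ranged from 3.01 to 3.67 (Sod1), 3.24 to 3.63 (Prdx3), 1.56 to 2.09 (Gpx4), 0.84 to 1.58 (Prdx2), -0.20 to 0.91 (1430979_a_at), -1.30 to -0.34 (Sod2), -0.69 to -0.16 (Txn1) and -0.13 to 0.69 (Srxn1). For ratios the range was 3.79 to 4.96 (Sod1 to Sod2), 3.58 to 4.80 (Prdx3 to Sod2) and -2.67 to -1.69 (Prdx2 to Sod1). Members called higher numbered 3 to 4. The replicate block ended no call of a member and added Sod2 1417193_at (-1.19, adjusted p = 0.0495), beside Prdx2. The median change of all probe sets tested moved from 0.17 to -0.12 after quantile normalization and -0.15 after centring, and the share of calls that were higher from 60.2% to 48.7% and 50.8%. Where a value moved, the cause was not tested. The number of arrays limits the precision, and signals near the array median set no fold.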

Other observations

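Among the sperm and spermatid markers, Prm2, which packs sperm DNA, read 28.0, 31.5, 15.7 and 46.1 on MII arrays 1 to 4 and 245.9, 130.9, 80.3 and 152.0 on one-cell arrays 1 to 4, a log2 change of 1.96 ± 0.39 (limma adjusted p = 0.00103). Akap4, a protein of the sperm tail, went the other way, from 61.8 to 106.9 in MII to between 6.1 and 25.9 (-1.77 ± 0.41, adjusted p = 0.00333). All its one-cell values lay below the array's median, so Akap4 entered only through the MII arrays and had to differ, and its call is a description. Its other probe sets did not enter the test. Among the cumulus and granulosa cell markers, Cyp11a1 changed by 1.26 ± 0.43 (adjusted p = 0.032) and by 0.88 without one-cell array 1 (adjusted p = 0.0588). Its call was also lost without MII array 1, 2 or 3, without one-cell array 4, with no filter and with the control covariate (0.49, adjusted p = 0.351).

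The selenoprotein Selenow rose on both of its probe sets. The brighter one read 455.1, 1480.6, 520.5 and 1940.3 in MII and 7782.0, 3052.2, 3060.4 and 6268.5 in one-cell arrays (2.33 ± 0.47, limma adjusted p = 0.00107). The mitochondrial thioredoxin Txn2, which serves Prdx3, read 391.8, 317.4, 455.1 and 479.4 in MII and 562.9, 981.8, 845.8 and 984.5 in one-cell arrays, without overlap. Its log2 change was 1.00 ± 0.28 (adjusted p = 0.0116), which did not pass after centring on array medians (0.69, adjusted p = 0.281). Another probe set of Txn2 rose by 1.42 and the remaining one did not pass (1.17, adjusted p = 0.0753).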
